A study of Mus musculus with 15 samples.

Results

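A set of 10 genes that mark satellite cells or sit at their surface was followed through tissue dissociation: Calcr, Cd34, Vcam1, Cdh15, Megf10, Tek, Cxcr4, Dag1, Gas1 and Chrdl2. They were chosen by name, as receptors, adhesion molecules and surface markers of the satellite cell niche, and all 10 were among the 8059 genes of the deposited table. The libraries are bulk RNA-seq of mouse skeletal muscle stem cells, another name for satellite cells. The series examined how dissociation of the tissue and injury affect muscle stem cells, and of its 15 labelled samples 6 have libraries here and 9, of single cells or nuclei, were not analysed here. T0 is labelled intact, the groups T15, T30, T60, T90 and T120 are labelled dissociated, and all of them are labelled fixed. The labels give no unit for these time numbers, which were taken as minutes. Per the labels' protocols, dissociation used collagenase and dispase, 2 enzyme preparations that cut matrix and surface proteins, and fixation used paraformaldehyde. RNA was taken with a kit for fixed tissue, and a stranded total RNA kit for low input was used to make libraries, which were read as 65-base single ends. The sources used here do not give the strain, age or sex, or the gate with which the bulk cells were sorted. T30 and T90 had 3 libraries and the other time points 4, named here by time and letter (0A to 120D). Nothing in the labels says that the letters are separate animals, so p-values measure the spread between these libraries, which may be technical.

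Satellite cells lie between the muscle fibre and its basement membrane. Cadherins and integrins hold them to the fibre and the matrix, and receptors read signals from both and from nearby vessels. In undisturbed muscle the cells are quiescent, and the calcitonin receptor, Notch and TIE2 pathways are among those known to favour that state. Once the muscle is damaged they activate, raise MYOD and lower PAX7 as they commit to myogenesis. Collagenase and dispase act on the proteins at the cell surface, whereas the values here are mRNA levels and say nothing of the proteins.

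In bulk RNA, fewer cells of a type and less RNA per cell cannot be told apart. Levels are given as CPM, the count relative to a TMM-adjusted library total, and a gene was called where edgeR's adjusted p over all listed genes was under 0.05. Totals over the listed genes ran from 2974294 to 10482407 counts at T0 to T30 and from 8647622 to 27826437 at T60 to T120. The 10 genes had between 253 and 54308 counts per library, so counting error was small beside the spread between libraries. All 10 markers chosen for satellite cells, 3 of them members (Calcr, Cdh15 and Chrdl2), were listed. Pax7 was at 1344 ± 203 CPM at T0 (SD, n = 4) and 377 ± 80.8 at T120, a log2 fold change of -1.83 ± 0.16 (SE; adjusted p = 2.54e-09). Myod1 went from 81.5 to 936 CPM (3.52 ± 0.21; adjusted p = 8.32e-12), and Myf5 had 0.25 ± 0.17 (adjusted p = 0.181).

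Against T0, none of the 10 genes was called at T15 or T30. The number was 1 at T60, and T90 and T120 had 3 and 9. The share of all listed genes called in the same comparisons was, in the same order, 0.67%, 5.0%, 56.2%, 68.8% and 76.8%. At T15 and at T30, 1 member had an unadjusted p under 0.05 (Gas1 and Chrdl2 in turn), and DESeq2 and limma-voom also called 0. At T60 the called gene was Cxcr4. At T90 the calls were Cxcr4 and Chrdl2 upward, where 33.8% of all genes rose, and Gas1 downward, where 35.0% fell. At T120, 3 members rose (Cxcr4, Chrdl2 and Tek, with 37.3% of all genes up) and 6 fell (Gas1, Cdh15, Megf10, Calcr, Cd34 and Dag1, with 39.5% of all genes down). Vcam1 was not called at any time. The median log2 fold change of the 10 moved from 0.08, -0.16, 0.07 and 0.02 at T15 to T90 to -0.57 at T120, where the median of all genes was -0.08. For 7 of the 10 the T120 libraries did not overlap those of T0, as for 71.4% of all listed genes. These 5 comparisons share the T0 libraries.

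**Figure D1:**
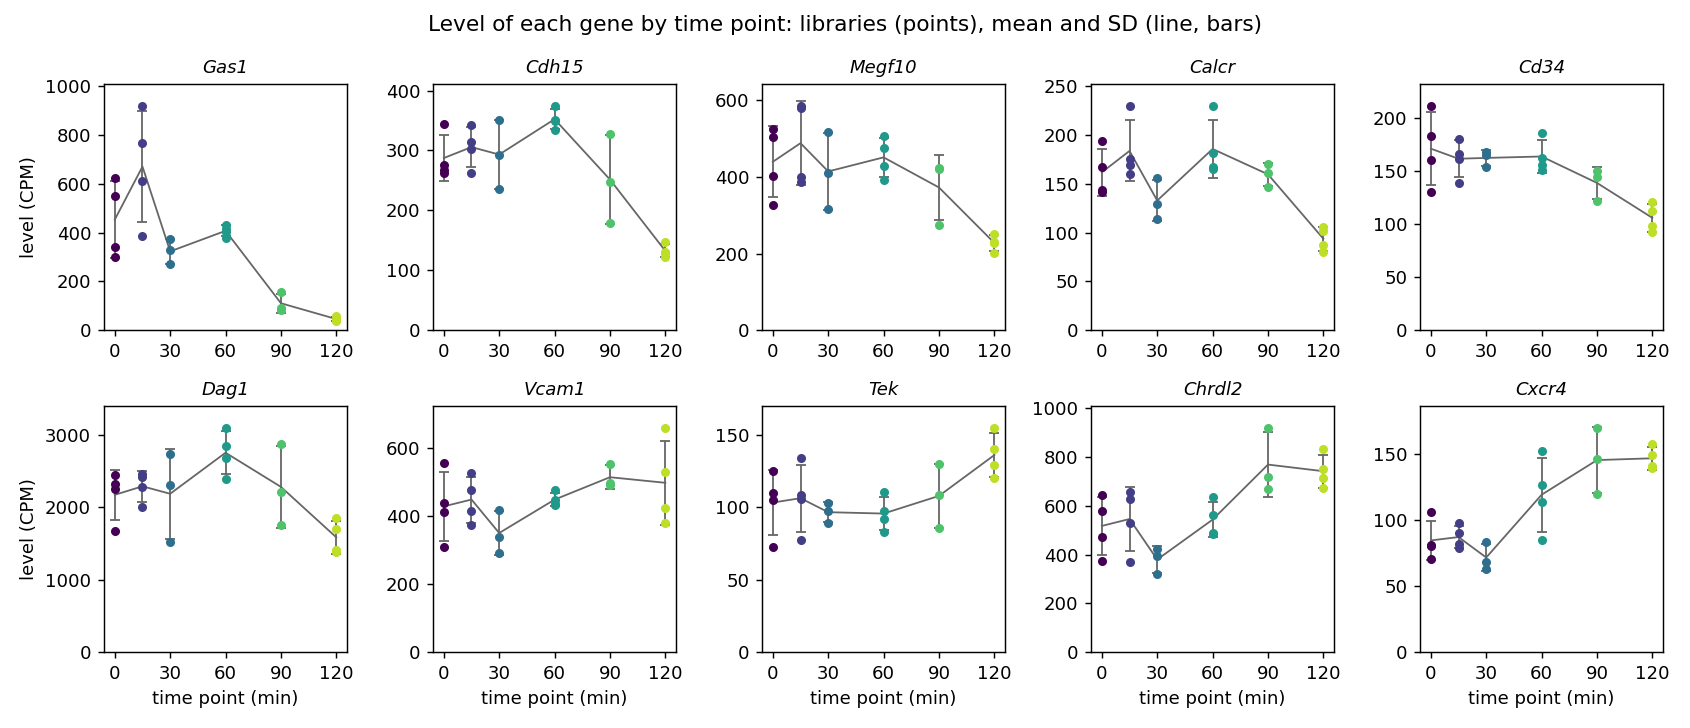
CPM of each of the 10 genes (y axis of each panel, from 0) against labelled time (x axis, taken as minutes). Points are single libraries and lines join the means of each time point, with bars for the SD. Gas1 falls from 407 to 111 and then 45.6 CPM between T60 and T120, whereas Vcam1 has overlapping libraries at T0 and T120.

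Steps between neighbouring time points do not rest on T0, although each shares a group with the next. From T15 to T30, 1 member was called (Gas1, down), beside 4.89% of all genes. From T30 to T60, 3 rose (Calcr, Cxcr4 and Chrdl2), beside 51.0% of genes called and 26.5% up. In this step a measure of background went from a mean of 4.20 to 0.15 CPM per kb. It is each library's median read density over long genes known mainly from other tissues. Leaving out the 5 libraries of highest background left only 30C at T30, which gives no spread there. Calcr, Cxcr4 and Chrdl2 then had 0.24, 0.50 and 0.35, beside 0.48, 0.73 and 0.52 with all libraries. After subtraction of the background, with library totals and TMM factors computed again, Calcr and Chrdl2 had -0.17 and -0.28. Cxcr4 had 0.06 (adjusted p = 0.788). Density was higher at T30 than at T60, so subtraction at the scaling of the main fit would have raised these values. From T60 to T90, 2 fell (Gas1 and Cdh15), beside 30.3% of genes called. Chrdl2 had 0.50 in that step (adjusted p = 0.0509) and was not called. From T90 to T120, 6 fell (Gas1, Cdh15, Calcr, Megf10, Dag1 and Cd34) and 0 rose, beside 23.0% of genes called and 13.9% down. The median over the 10 in that last step was -0.46, and -0.04 over all genes. The first 3 steps had member medians of -0.26, 0.33 and -0.23, and medians over all genes of -0.02, 0.01 and -0.02.

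**Figure D2:**
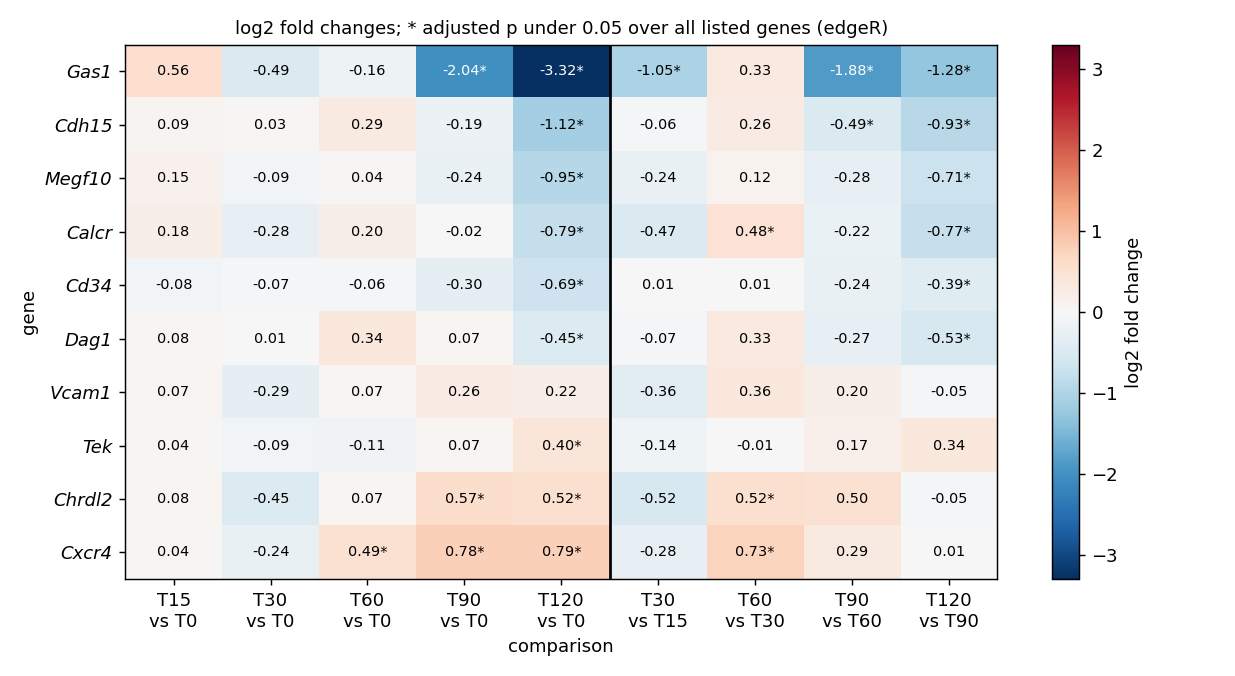
Log2 fold change of each gene (rows) in the 5 comparisons with T0 and, right of the line, the 4 steps between neighbouring time points (columns), blue for lower and red for higher. Stars mark adjusted p under 0.05 by edgeR: none at T15 and T30 against T0, and 9 of 10 genes at T120.

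The sequence just upstream of the start is shown for 3 genes: Cxcr4, which had the largest rise, Gas1, which had the largest fall, and Dag1, which had the highest level. Each run is the 250 bases before a RefSeq transcription start in GRCm38.p6, for Dag1 the first of 2 in the table, written 5′ to 3′ on the strand of the gene. The Cxcr4 window is chr1:128592300-128592549, the Gas1 window chr13:60177536-60177785 and the Dag1 window chr9:108263959-108264208, all on the minus strand. Capitals mark matches, on either strand, to the motifs named after the sequences.
Cxcr4: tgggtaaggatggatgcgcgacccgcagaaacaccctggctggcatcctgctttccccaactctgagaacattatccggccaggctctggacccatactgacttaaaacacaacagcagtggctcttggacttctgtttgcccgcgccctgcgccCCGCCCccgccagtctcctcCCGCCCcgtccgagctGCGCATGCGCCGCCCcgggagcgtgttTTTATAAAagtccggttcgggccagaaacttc
Gas1: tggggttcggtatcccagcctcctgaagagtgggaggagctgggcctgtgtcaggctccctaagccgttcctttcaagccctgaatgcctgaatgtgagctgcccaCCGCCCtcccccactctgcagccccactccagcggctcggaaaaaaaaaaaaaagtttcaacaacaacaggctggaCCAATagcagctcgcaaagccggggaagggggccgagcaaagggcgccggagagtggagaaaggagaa
Dag1: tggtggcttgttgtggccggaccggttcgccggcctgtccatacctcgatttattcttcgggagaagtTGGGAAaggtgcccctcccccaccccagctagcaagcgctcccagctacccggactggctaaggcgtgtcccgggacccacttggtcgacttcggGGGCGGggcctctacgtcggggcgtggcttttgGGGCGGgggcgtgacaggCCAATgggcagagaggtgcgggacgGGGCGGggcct

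The Cxcr4 window held 3 GC boxes (GGGCGG, or CCGCCC on the other strand), a TATA box (TATAAA, matched on both strands by overlapping letters) and an NRF1 motif that overlaps the third GC box. The Gas1 window held 1 GC box and 1 CCAAT box (CCAAT), and the Dag1 window 3 GC boxes, 1 CCAAT box and 1 RBPJ motif (TGGGAA). The other Dag1 window, chr9:108263816-108264065, overlaps it and held 3 GC boxes, 2 CCAAT boxes and no RBPJ motif. Of 32851 windows of the same length, 32.74% held a GC box, 33.85% a CCAAT box, 12.37% a TATA box, 3.738% the NRF1 motif and 21.59% the RBPJ motif. No match in any member's window was found to AP-1 (TGANTCA, in 6.749% of all windows), CRE (TGACGTCA, 1.546%), NF-kB (0.3562%) or the MYOD E-box (CAGCTG, 13%). The HIF core (ACGTG, in 16.57% of windows) matched in the Cdh15 window alone among the members. Windows were in the RefSeq table for 7 of the 10 genes, and those of Tek and Cd34 held none of these motifs. Vcam1, Chrdl2 and Megf10 were not matched. A match is a run of letters, not a binding site.

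Calcr (ENSMUSG00000023964, chr6:3685680-3764714, minus strand, mm10) encodes the calcitonin receptor, a G protein-coupled receptor that in quiescent satellite cells also responds to collagen V and signals through cyclic AMP. It stood at 168, 194, 142 and 144 CPM in libraries 0A to 0D and at 106, 80.2, 87.1 and 102 CPM in 120A to 120D. Every T120 library was below every T0 library. The log2 fold change was -0.79 ± 0.14 (adjusted p = 3.71e-05), 1.73-fold lower. At T90 Calcr was still at 160 ± 11.9 CPM (n = 3), with a log2 difference of -0.02 from T0, and the T90 to T120 step was -0.77 ± 0.15 (adjusted p = 0.00163). Between T30 (114 to 156 CPM) and T60 (165 to 229 CPM) the groups did not overlap, and the rise was 0.48 ± 0.15 (adjusted p = 0.0124). That rise was lost without library 30B (0.37; adjusted p = 0.0827) or 60A (0.36; adjusted p = 0.0559). It was 0.24 without the 5 libraries of highest background, a fit that left only 30C at T30. After background subtraction, with its new scaling, the value was -0.17.

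Of 19 listed genes of the calcitonin receptor pathway, its collagen ligands and cyclic AMP enzymes, 8 rose and 5 fell at T120 against T0, with a median of -0.11. Among all listed genes 37.3% rose and 39.5% fell at T120, with a median of -0.08, and the counts of this and the following lists stand beside those shares. The receptor activity-modifying protein gene Ramp2 fell by 1.78 ± 0.23. The protein kinase A subunit gene Prkar2b fell by 1.34 ± 0.20, from 28.2 to 11.2 CPM. Pde4b, whose product breaks down cyclic AMP, rose by 1.70 ± 0.12 to 975 CPM. Col5a1, which encodes a chain of collagen V, rose by 0.42 ± 0.12. These changes differed in time. Ramp2 had already fallen at T90 (-1.65 ± 0.25 from T0), where Calcr had -0.02, and Col5a1 had risen at T60 (0.48 ± 0.12).

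Cdh15 (ENSMUSG00000031962, chr8:122847966-122867397, plus strand) encodes M-cadherin, which joins the satellite cell to the fibre. Its level was 344, 276, 263 and 267 CPM in the T0 libraries, and 334, 374, 351 and 350 CPM at T60. At T60 it was 0.29 ± 0.15 from T0 (adjusted p = 0.101), and the authors' deposited table gives 0.32 with adjusted p = 0.0486. The T90 libraries spread from 179 to 328 CPM, and those of T120 held 123, 130, 148 and 129 CPM. All T120 libraries lay below all others of the series. The T120 change against T0 was -1.12 ± 0.15 (adjusted p = 1.02e-06), 2.17-fold lower, and the T90 to T120 step was -0.93 ± 0.16 (adjusted p = 0.000812). The T60 to T90 step of -0.49 ± 0.16 (adjusted p = 0.0289) was lost without 60B, 60C, 90A or 90C (-0.30 and adjusted p = 0.184 without 90A), and also with only the 2 time points fitted or after background subtraction.

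Of 11 listed catenin and junction genes 7 rose, 1 fell and 3 were not called at T120, with a median of 0.74. Ctnnb1, the catenin that binds cadherin tails and carries Wnt signals, rose from 255 to 593 CPM (1.21 ± 0.13). Vcl, the actin linker vinculin, rose by 1.71 ± 0.14, and Nectin2, another adhesion molecule, by 1.49 ± 0.37.

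Dag1 (ENSMUSG00000039952, chr9:108204634-108263958, minus strand) encodes dystroglycan, the laminin receptor that ties the matrix to dystrophin. It was the most abundant of the 10 and stood at 2325, 2445, 1672 and 2249 CPM at T0. At T60 the libraries held 2391, 3094, 2843 and 2688 CPM, a difference of 0.34 ± 0.18 from T0 (adjusted p = 0.104; 0.37 and 0.0302 in the authors' deposited table). The T120 libraries held 1410, 1705, 1847 and 1380 CPM, and 2 of them lay above the lowest T0 library. The change was -0.45 ± 0.18 (adjusted p = 0.024). It was not called without 0A, 0B, 120A or 120D (-0.36 to -0.42; adjusted p = 0.0532 to 0.108), and the T90 to T120 step (-0.53 ± 0.19; adjusted p = 0.0489) was lost without 90B, 90C, 120A, 120B or 120D. It was also lost with RLE factors, limma-voom, only the 2 time points fitted, the library letter as a block and background subtraction (adjusted p = 0.059 to 0.183).

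Among 22 listed genes of the dystrophin and dystroglycan complex and of the enzymes that glycosylate it, 5 rose and 7 fell at T120 (median -0.25). The complex members Sspn (sarcospan) and Sgcb (beta-sarcoglycan) fell by 2.15 ± 0.18 and by 1.4 ± 0.16. Pomt1, which starts the sugar chain of dystroglycan, fell by 1.66 ± 0.19, from 33.9 to 10.7 CPM. Dmd, which encodes dystrophin, was at 1074 CPM at T0 and 894 at T120 (-0.27 ± 0.12; adjusted p = 0.0511).

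Cd34 (ENSMUSG00000016494, chr1:194938819-194961279, plus strand) encodes a sialomucin of satellite, endothelial and blood progenitor cells. It stood at 182, 211, 160 and 130 CPM at T0 and at 121, 98.4, 112 and 91.9 CPM at T120, with no overlap. The change was -0.69 ± 0.13 (adjusted p = 5.09e-05), 1.62-fold lower. At T60 it was at 163 ± 15.7 CPM (-0.06 from T0; adjusted p = 0.701). At T90 it was at 139 ± 14.8 CPM (-0.30 ± 0.14; adjusted p = 0.0575), for which the authors' deposited table gives -0.29 and 0.0499. Without 0C, 0D or 90A that value was called, as it was with the library letter as a block (-0.35, adjusted p = 0.0184). The T90 to T120 step of -0.39 ± 0.14 (adjusted p = 0.0428) was lost without 90A, 90B, 120B, 120C or 120D (adjusted p = 0.0518 to 0.155) and with RLE factors, only the 2 time points fitted, background subtraction or without the 5 libraries of highest background. With the library letter as a block that step was lost too (adjusted p = 0.0569). The exons of Cd34 overlap the antisense gene Gm16897 over 148 bases.

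Vcam1 (ENSMUSG00000027962, chr3:116109949-116129688, minus strand) encodes an adhesion molecule that binds alpha-4 integrins and is widely used to sort satellite cells. Its libraries held 438, 557, 309 and 412 CPM at T0 and 424, 530, 381 and 660 CPM at T120. These overlap, and the difference was 0.22 ± 0.17 (adjusted p = 0.258), with a 95% interval from -0.12 to 0.55. At T90 Vcam1 was at 493 to 555 CPM (0.26 ± 0.18; adjusted p = 0.213), where the authors' deposited table gives 0.36 and 0.0413. Its exons overlap the antisense gene Gm43109 over 61 bases. Whether counting used strand is not given, so reads of these overlaps in Cd34 and Vcam1 cannot be assigned.

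The list for VCAM1 and CD34 also holds genes that are not binding partners of either, such as Gal and Icam1. Of its 13 listed genes, 9 rose and 1 fell at T120 (median 0.61). The alpha-4 integrin gene Itga4 was not listed. Itgb1, the beta-1 chain of the VCAM1 receptor, rose from 328 to 605 CPM (0.88 ± 0.12), and Msn, whose product moesin links such proteins to actin, rose by 1.88 ± 0.14. Icam1, a related adhesion molecule, rose by 2.07 ± 0.56 but reached only 27.4 CPM. The neuropeptide gene Gal rose by 4.68 ± 0.45, from 27.3 to 701 CPM. Other satellite cell genes, mostly of surface proteins, rose in 13 and fell in 7 of 23 listed cases (median 0.76). Tnfrsf12a, the TWEAK receptor, rose by 6.40 ± 0.21, Sdc4 (syndecan-4) by 2.59 ± 0.18 and the tetraspanin gene Cd9 by 2.12 ± 0.10. Cd82, another tetraspanin, rose by 1.14 ± 0.14, and Itga7, the laminin receptor chain used in sorting, by 0.77 ± 0.17. Notch3 fell by 0.33 ± 0.14 (adjusted p = 0.035).

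**Figure D3:**
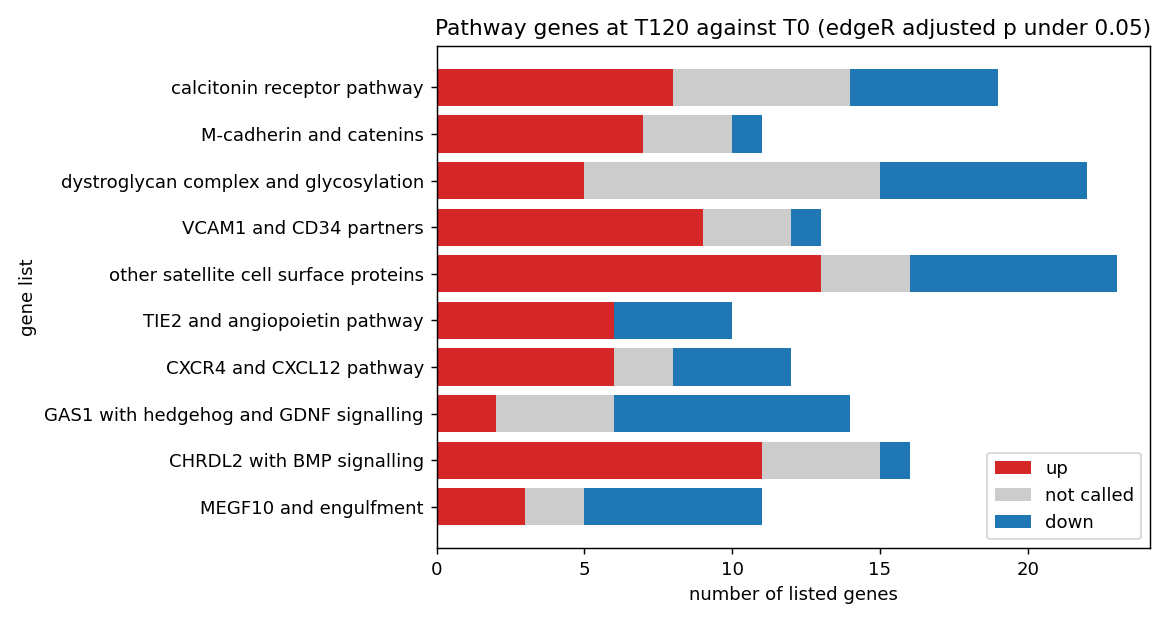
Number of listed genes of each partner list that were called up or down by edgeR at T120 against T0, with those not called. Catenins and BMP genes have 7 and 11 calls up against 1 each down, and the GAS1 list has 2 up and 8 down.

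Megf10 (ENSMUSG00000024593) encodes a surface receptor with epidermal growth factor-like repeats that engulfs cell debris and in satellite cells favours proliferation over differentiation. Its libraries held 402, 504, 327 and 525 CPM at T0 and 202, 229, 251 and 229 CPM at T120, without overlap. The change was -0.95 ± 0.19 (adjusted p = 9.83e-05), 1.93-fold lower. At T90 it was at 275, 423 and 419 CPM (-0.24 ± 0.20 from T0; adjusted p = 0.294). The T90 to T120 step was -0.71 ± 0.20 (adjusted p = 0.0145) and was lost without 90B, 90C, 120A or 120D (adjusted p = 0.0509 to 0.0816). Of 11 listed engulfment and ligand genes, 3 rose and 6 fell at T120 (median -0.37). The engulfment receptor genes Mertk and Axl differed in direction, with -1.86 ± 0.36 and 1.32 ± 0.11, and the Notch ligand gene Dll1 fell by 1.33 ± 0.23.

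Tek (ENSMUSG00000006386, chr4:94739289-94874976, plus strand) encodes TIE2, the angiopoietin receptor of endothelial cells that a quiescent fraction of satellite cells also carries. It was at 110, 126, 105 and 72.7 CPM at T0 and at 141, 129, 120 and 155 CPM at T120. Library 120C lay below 0B, so the groups overlapped. The difference was 0.40 ± 0.17 (adjusted p = 0.0328), and it was lost without 0D (0.26; adjusted p = 0.139) or 120D (0.37; adjusted p = 0.0595). At T15 to T90 the means lay between 95.8 and 108 CPM.

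Endothelial markers moved with Tek at T120. Of 16 such genes 8 were listed (Pecam1, Cdh5, Kdr, Flt1, Eng, Vwf, Ptprb and Fabp4), and 7 rose at T120 against T0, with a median of 1.63. Against T90 7 rose as well, beside 734 of all 8059 listed genes. Their summed level was 118 to 261 CPM at T0, 97.2 to 350 at T30, 178 to 230 at T90 and 316 to 815 at T120. The T30 library 30A, at 350 CPM, lay above 120D and had Tek at 103 CPM. Background was also highest in 30A (6.24 CPM per kb). The 5 libraries of highest background (0A, 0C, 15D, 30A and 30B) had the highest endothelial sums of T0 to T30 (241 to 350 CPM). Within T120 the library with the lowest sum, 120D (316 CPM), had the highest Tek (155 CPM), and the one with the highest sum, 120C (815 CPM), had the lowest (120 CPM). The 8 not listed include Tie1, Emcn and Cldn5. Cd34, Cxcr4 and Vcam1 are also expressed by endothelium. Cxcr4 was at 146 ± 24.8 CPM at T90 and 147 ± 8.66 at T120, and the endothelial sum at T90 was within the T0 range. The upper part of that range came from 0A and 0C (257 and 261 CPM), whereas 0B and 0D had 118 and 161 CPM. The part of endothelial cells in the values of Tek, Cxcr4, Cd34 and Vcam1 was not tested, nor was that of background in the endothelial sums.

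**Figure D4:**
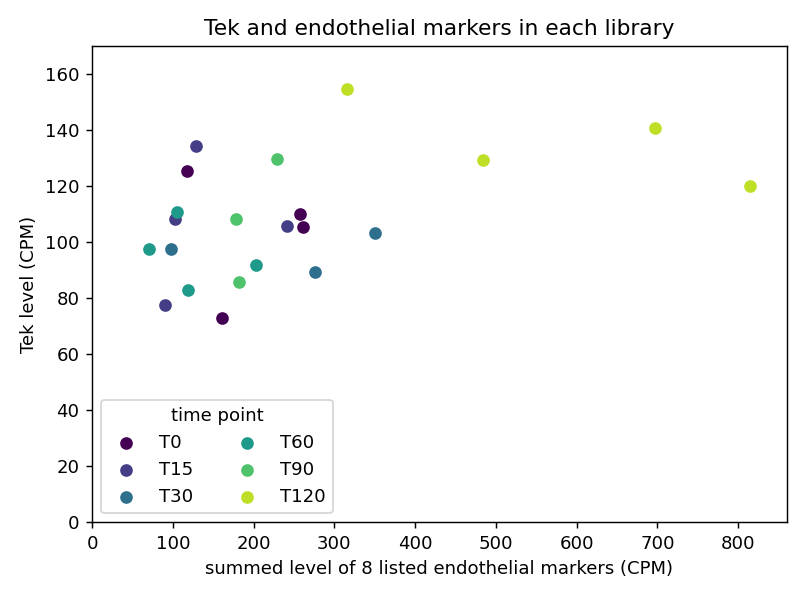
Tek in CPM (y axis) against the summed CPM of 8 endothelial marker genes (x axis), 1 point per library, coloured by time. The 4 T120 libraries have sums from 316 to 815, a range that also holds the T30 library 30A (350), which has the highest background. Among the T120 libraries Tek is highest at the lowest sum.

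Of 10 listed genes of the TIE2 pathway 6 rose and 4 fell at T120, where 76.8% of all listed genes were called, and their median was 0.56. The adaptor gene Grb2 rose by 2.08 ± 0.13, and Foxo3, a transcription factor that AKT holds out of the nucleus, fell by 1.98 ± 0.20. Angptl1, an angiopoietin relative, fell by 1.69 ± 0.33, from 24.5 to 7.61 CPM. The ligand genes Angpt1 and Angpt2 were not among the listed genes.

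Cxcr4 (ENSMUSG00000045382, chr1:128588199-128592293, minus strand) encodes the receptor for the chemokine CXCL12, which guides migrating muscle progenitors. It was at 81.5, 106, 70.7 and 80.6 CPM at T0, at 170, 147 and 120 at T90, and at 141, 149, 139 and 158 at T120. All T90 and T120 libraries lay above all T0 libraries. The log2 change was 0.78 ± 0.16 at T90 (adjusted p = 0.000261) and 0.79 ± 0.15 at T120 (adjusted p = 8.63e-05), 1.73-fold higher. Between T90 and T120 the difference was 0.01 ± 0.16 (adjusted p = 0.962). At T60 the libraries held 114, 127, 85.1 and 152 CPM and overlapped T0. The T60 change of 0.49 ± 0.15 (adjusted p = 0.0095) was lost without 60D (0.36; adjusted p = 0.0545) or without the 5 libraries of highest background (0.38; adjusted p = 0.119).

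Of 12 listed CXCR4 pathway genes 6 rose and 4 fell at T120 (median 0.20). The ligand gene Cxcl12 rose by 0.69 ± 0.24 (adjusted p = 0.0123), from 36.5 to 58.9 CPM, after a fall of its own at T60 (-0.82 ± 0.24; adjusted p = 0.00676). Gnai3, an inhibitory G protein subunit, rose by 1.37 ± 0.14 and Hif1a, a hypoxia factor known to induce Cxcr4, by 1.33 ± 0.11. Arrb1, which takes active receptor off the surface, fell by 1.12 ± 0.14.

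Gas1 (ENSMUSG00000052957, chr13:60174405-60177365, minus strand) encodes a lipid-anchored protein that acts as a hedgehog co-receptor, binds RET and was named for its expression in growth-arrested cells. It had the largest change of the 10. Its libraries held 300, 622, 341 and 551 CPM at T0 and 919, 766, 611 and 387 at T15, a difference of 0.56 ± 0.25 (adjusted p = 0.999). At T30 they held 270, 327 and 373 CPM and at T60 433, 401, 379 and 417 CPM. Up to T60 the level was thus at 270 CPM or more in every library. At T90 the libraries held 84.6, 156 and 91.3 CPM, and at T120 59.3, 40.9, 43.7 and 38.4 CPM. No library of T90 or T120 reached any of the earlier ones, and T120 lay below T90 throughout. The changes from T0 were -2.04 ± 0.29 at T90 (adjusted p = 2.97e-06) and -3.32 ± 0.28 at T120 (adjusted p = 8.92e-10), 9.97-fold lower. The T60 to T90 step was -1.88 ± 0.29 (adjusted p = 0.000117) and the T90 to T120 step -1.28 ± 0.27 (adjusted p = 0.00286). From T15 to T30 Gas1 fell by 1.05 ± 0.28 (adjusted p = 0.033). The call was lost without 15A, 15B, 30A or 30B (-0.84 to -1.04; adjusted p = 0.0992 to 0.205). It was also lost with only the 2 time points fitted (-1.03; adjusted p = 0.129) or after background subtraction (-0.48; adjusted p = 0.171). Without the 5 libraries of highest background, where only 30C was left at T30, the value was -1.03. The single exon overlaps the opposite-strand lincRNA Gm48488 over 589 bases, where reads likewise cannot be assigned without the strand setting.

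Of 14 listed genes of hedgehog and GDNF signalling, 2 rose and 8 fell at T120 (median -0.45), beside 37.3% up and 39.5% down among all listed genes. Ptch1, the hedgehog receptor and target gene, fell by 0.95 ± 0.15, the transcription factor gene Gli2 fell by 1.47 ± 0.13 and the inhibitor gene Hhip fell by 1.51 ± 0.30. Gdnf, the ligand that signals through RET, rose by 3.39 ± 0.42, from 12.3 to 123 CPM.

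Chrdl2 (ENSMUSG00000030732, chr7:100006172-100034728, plus strand) encodes chordin-like 2, a secreted protein that binds bone morphogenetic proteins (BMP) and serves as a marker of satellite cells, so that it is no receptor. It was at 643, 580, 472 and 374 CPM at T0, at 918, 719 and 668 at T90, and at 711, 751, 671 and 831 at T120. The T90 and T120 libraries lay above all T0 libraries. The changes were 0.57 ± 0.19 at T90 (adjusted p = 0.0114) and 0.52 ± 0.18 at T120 (adjusted p = 0.0118), 1.43-fold higher. The first was lost without 90A (0.42; adjusted p = 0.0804) and the second without 0D (0.39; adjusted p = 0.0517). From T30 (320, 396 and 423 CPM) to T60 (486 to 635 CPM) it rose by 0.52 ± 0.19 (adjusted p = 0.0312), which was lost without 30A, 30B, 60B or 60D and with the authors' size factors (adjusted p = 0.0577). After background subtraction the value was -0.28 (adjusted p = 0.401), and with the library letter as a block 0.48 (adjusted p = 0.0571). The T60 to T90 step was 0.50 ± 0.19 (adjusted p = 0.0509), without overlap between the groups. Chrdl2 was called there with RLE factors, the authors' size factors, DESeq2 or only the 2 time points fitted (adjusted p = 0.0213 to 0.0414). Without the 5 libraries of highest background it was also called (adjusted p = 0.0462). The authors' deposited table gives 0.54 and 0.0209.

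Of 16 listed BMP pathway genes 11 rose and 1 fell at T120 (median 0.60). The gene that fell, Chrd, encodes the related antagonist chordin (-2.19 ± 0.26, from 27.1 to 6.0 CPM). The receptor gene Bmpr2 rose by 1.76 ± 0.15 and the inhibitor gene Smad7 by 1.49 ± 0.30. Id1, a BMP target gene, had 0.28 ± 0.31 at T120 (adjusted p = 0.407) and had risen by 1.77 ± 0.31 at T60 (adjusted p = 5.34e-05).

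Levels between genes were compared per kilobase of exon, with all annotated exons of a gene merged (8.87 kb for Vcam1, 1.81 kb for Cxcr4). Where transcripts use only part of these exons the value is too low, so the order depends on this choice. At T0 the order was Dag1 (342 ± 54.1 CPM per kb), Gas1 (153 ± 53.2), Chrdl2 (141 ± 32.5), Cdh15 (88.4 ± 11.7), Megf10 (56.9 ± 12.0), Vcam1 (48.4 ± 11.5), Cxcr4 (46.8 ± 8.33), Calcr (41.4 ± 6.21), Cd34 (23.4 ± 4.69) and Tek (21.9 ± 4.71; SD, n = 4). Neighbours in this order overlapped between libraries except Dag1 and Gas1, Cdh15 and Megf10, and Calcr and Cd34. At T120 the order was Dag1 (249 ± 35.8), Chrdl2 (202 ± 18.6), Cxcr4 (81.3 ± 4.79), Vcam1 (56.2 ± 14), Cdh15 (40.7 ± 3.33), Megf10 (29.5 ± 2.59), Tek (28.9 ± 3.19), Calcr (24.0 ± 3.11), Gas1 (15.4 ± 3.17) and Cd34 (14.5 ± 1.77). Gas1 moved from rank 2 to rank 9 and Cxcr4 from rank 7 to rank 3. The T120 neighbours without overlap were Chrdl2 and Cxcr4, Cxcr4 and Vcam1, Cdh15 and Megf10, and Calcr and Gas1.

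**Figure D5:**
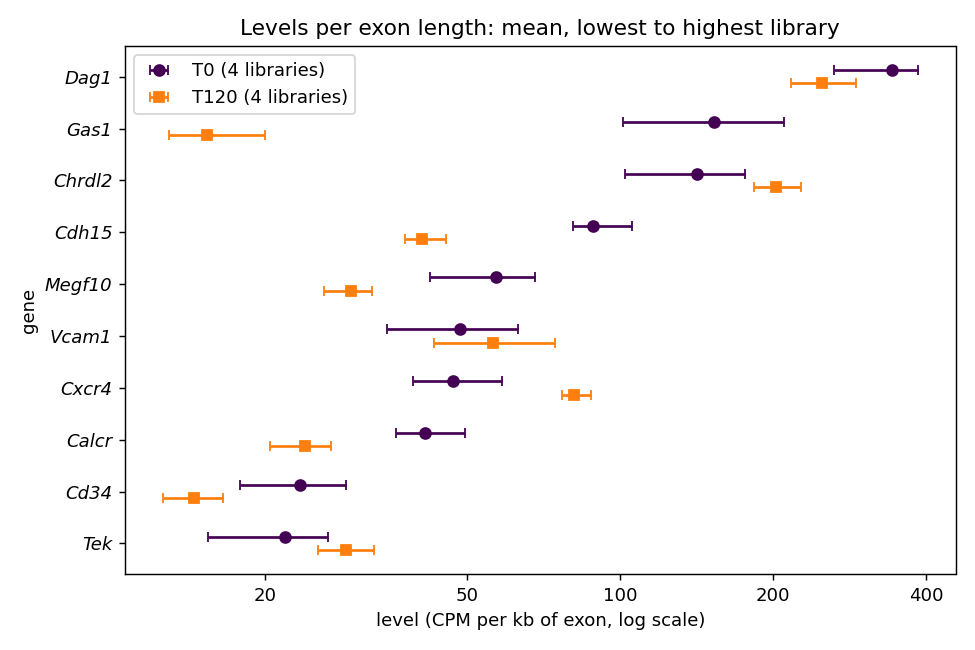
Level of each member per kilobase of exon (x axis, CPM per kb, log scale) at T0 and T120. Marks are means of 4 libraries and bars run from the lowest to the highest library. Gas1 is second at T0 and ninth at T120, and Dag1 is first at both.

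The background density also moved with time. Of 30 long genes of other tissues 8 were listed (Xirp2, which muscle fibres express as well, Dnah8, Dnah17, Ryr3, Csmd1, Pclo, Mroh2a and Muc16). No listed gene has a mean normalized count under 98.4, and the T0 to T30 libraries, where these 8 were high, added most to their means. The density and the subtraction built on it thus rest on genes kept largely through the libraries where they were high. The median density of the 8 in each library had a mean of 2.43 ± 1.04 CPM per kb at T0 (SD, n = 4). It had 4.20 ± 2.31 at T30 (n = 3), 0.15 ± 0.02 at T60 (n = 4) and 0.65 ± 0.47 at T120 (n = 4). This density was taken off every gene in proportion to its exon length, and library totals and TMM factors were then computed again. In that fit 7 members were called at T120. Tek had 0.24 (adjusted p = 0.339) and Chrdl2 0.23 (adjusted p = 0.42), so neither was called. Density was higher at T0 than at T120, so taking it off at the scaling of the main fit would not have lowered these rises. The fit holds a new scaling beside the subtraction, and their parts were not separated. Chrdl2 at T90 had 0.18 (adjusted p = 0.6), and Cxcr4 at T60 had 0.16 (adjusted p = 0.478). Other values became calls in this rescaled fit: Cd34 (-0.56; adjusted p = 0.0115), Cdh15 (-0.59; adjusted p = 0.0251) and Megf10 (-0.57; adjusted p = 0.00374) at T90, and Gas1 (-0.52; adjusted p = 0.048) at T60. Density was lower at T60 and T90 (0.28) than at T0. Subtraction at the scaling of the main fit would therefore have made these falls smaller. The 6 falls at T120 were called with and without the subtraction. Genes of the partner lists, some of low level, were not examined after it, and the part of background in their falls was not tested.

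The listed genes most like each member over the 22 libraries, by Pearson's r of log2 CPM, are given as a description, since the points share libraries, depth and background. For Gas1 they were Zcchc7 (r = 0.975) and Micu2 (0.970), for Dag1 Mxra7 (0.958) and Olfml2b (0.932), and for Megf10 Thra and Ttc3 (both 0.956). For Cdh15 they were Tmem109 (0.952) and Zfp827 (0.951), for Cxcr4 Ddx6 (0.952) and Uso1 (0.948), and for Calcr Itpr2 (0.945) and Kidins220 (0.934). For Cd34 they were Nap1l5 and Sgca (both 0.927) and for Chrdl2 Tbk1 (0.885) and Mirg (0.881). The lowest best matches were those of Vcam1, with Scaf11 (0.826) and Copb1 (0.816), and Tek, with Socs4 (0.810) and Prkar2a (0.785).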

How the data were processed

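Bulk RNA-seq of 6 labelled time points was used (22 libraries). The authors deposited whole-number counts per gene, per the file headers. A second set of columns holds the counts that the authors divided by library size factors and rounded, which is a score here and served only as an alternative scaling. Their deposited log2 fold changes and adjusted p-values, per the file headers, are quoted for some members. Another 22 columns (means and linear folds) were left out. No listed gene has a mean normalized count under 98.4, and genes of weak expression were therefore not analysed here. Tools named in the submitters' processing notes, without roles, include DESeq2 1.18.1, featureCounts 1.4.5-p3 and cutadapt 1.11, with the build mm10. The sources used here do not give the aligner or the strand setting of counting.

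The test was run in edgeR 4.0.16 under R 4.3.3 (quasi-likelihood F test, TMM factors, time point as a factor, all 22 libraries in 1 fit, Benjamini-Hochberg adjustment over the 8059 listed genes, all kept by filterByExpr). Every adjusted p is from this test unless another tool is named. Common biological variation was 0.192. It was 0.337 after background subtraction, for which library totals and TMM factors were computed again. The scripts were tested on simulated data. TMM takes most genes as unchanged, so a shift shared by most genes could not be seen. Positions and exon lengths came from GENCODE vM21, which matched 8049 identifiers. Upstream windows came from the RefSeq table of GRCm38.p6. The motifs GC box, CCAAT box, TATA box, NRF1 and HIF core were chosen after the data were seen.

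Members, partner lists and marker lists were chosen with earlier results of these data known. All members were named, with at most 3 called genes of largest change per partner list and a fixed set of pathway genes, the 2 genes most like each member, and Pax7, Myf5 and Myod1. Marker lists were counted at T120 against T0. Satellite cell markers rose in 6 and fell in 3 of 10 listed, and fibro-adipogenic markers rose in 2 of 6. Pericyte markers rose in 2 and fell in 1 of 7, and myofibre markers rose in 2 and fell in 5 of 8. Among the pericyte markers Rgs5 went from 12.4 to 125 CPM and Myh11 from 20.9 to 96.0. The 1 that fell was Notch3, also counted above among satellite cell genes. Of glial markers 1 of 2 fell (Ncam1, likewise counted among satellite cell genes), and of immune markers the only listed one, Cd68, rose. None of the 6 tenocyte markers was listed. Alternatives were RLE factors, the authors' size factors, DESeq2 1.42.0, limma-voom (limma 3.58.1), no filter, fits of only the 2 time points compared, the library letter as a block, background subtraction, leaving out the 5 libraries of highest background, and leaving out each library in turn.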

Additional observations from a re-analysis of the deposited data

Results flagged for a closer look

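Cdh15 at T0 had a library apart from the others: 0A stood at 344 CPM, and the other 3 libraries at 263 to 276 CPM. This was the only such case among the 40 groups of 4 libraries examined (10 genes at 4 time points), and chance gives about 1 in 20. Without 0A the T120 fall of Cdh15 was still called. Library 0A is also among the 5 with the highest background density.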

How the results depend on the processing

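At T120 against T0, 9 members were called under each of the alternatives of scaling, tool, filter and fit and without the 5 libraries of highest background, 7 after background subtraction and 7 to 9 with single libraries left out. The number called at T60 against T0 (1) was 3 with only the 2 time points fitted, 0 without the 5 libraries of highest background and 0 to 1 with a library left out. After background subtraction it was again 1, but Gas1 down in place of Cxcr4 up. At T90 against T0 (3) it was 5 after background subtraction. For T30 against T15 (1) it was 0 with only the 2 time points, 0 after subtraction and 0 to 2 with a library left out. For T60 against T30 (3) it was 1 to 4 with a library left out, 1 without 30B. Without the 5 libraries only 30C was left at T30, so no number is given for the steps to and from T30. For T90 against T60 (2) it was 1 after subtraction, 3 with DESeq2 and 1 to 3 with a library left out. Chrdl2 upward was added with DESeq2, RLE factors, the authors' size factors, only the 2 time points or without the 5 libraries. For T120 against T90 (6) it was 3 to 6 with a library left out, 3 without 90B or 120D. Subtraction with the new scaling reversed 4 values of T60 against T30: Calcr to -0.17, Cd34 to -0.55, Megf10 to -0.57 and Chrdl2 to -0.28. The median of all genes there moved from 0.01 to 0.17, and Cd34 and Megf10 were then called down and 0 up. At the scaling of the main fit, subtraction would have raised these 4 values, since density was higher at T30 than at T60. Subtraction and scaling were not separated, and the causes of these shifts were not tested.

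The letters A to D were not taken as pairs: deviations correlated over 0.1 in 26 of 51 same-letter pairs (median 0.12) and in 45 of 150 other pairs (median -0.02), not in every pair. As a hint from the data, 10 of 22 libraries correlated best with their own letter. With the letter as a replicate block 9 members were called at T120 against T0, 4 at T90 against T0, 2 at T60 against T30 and 4 at T120 against T90.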
